A study of Homo sapiens with 6 samples.

Results

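Metallothioneins are small cysteine-rich proteins of the cytosol and nucleus that bind zinc, copper and cadmium. The members described here are 5 metallothionein genes, MT1E, MT1F, MT1G, MT1X and MT2A, together with MTF1, the zinc-sensing transcription factor, and SLC30A1, the zinc exporter of the plasma membrane. They were chosen as the rows of the count table that carry the Entrez identifiers of these 7 genes, out of 23459 genes in all. The rule itself uses no measured value, but the genes were proposed with earlier results of these data known. Of the 7, 5 had enough counts to be tested, and MT1E and MT1G did not.

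In cells with more free zinc, MTF1 enters the nucleus and binds short metal response elements in the promoters of metallothionein genes and of SLC30A1, so that more zinc is bound in the cell and more is exported. Most human metallothionein genes lie side by side in 1 cluster on chromosome 16. MT2A and MT1X are widely expressed and also respond to steroid hormones and to oxidative stress, while MT1E has been described mainly in breast cancer cells that lack the estrogen receptor.

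The mRNA came from T47D-YA, a line made from the luminal breast cancer line T47D that carries progesterone receptor form A. Fibroblast growth factor 2 (FGF2) was overexpressed as its 18 kDa isoform in 1 group and as its 22.5 kDa isoform in another, the last group held the empty vector, and every group had 2 libraries. All groups share the T47D-YA background, and the labels do not say whether a group is 1 clone, a pool or separate cultures. The p-values thus measure only the spread between these libraries, which may be technical. Both comparisons with the empty vector use the same 2 control libraries.

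The counted totals ran from 5317687 to 6817324 reads per library. The sequencing yield stated in the labels is several times larger, so most of the stated reads are not in the table. For RNA quality the labels state a minimum RNA integrity number of 5. Of 7 mitochondrially encoded genes looked for as a sign of RNA quality, 0 had a row, and its part in the results was not tested. Levels are given as CPM, the count relative to the library total after scaling with trimmed-mean factors. FGF2 itself was at 2.15 and 2.44 CPM in the empty vector, 961 and 767 with the 18 kDa isoform and 1333 and 1555 with the 22.5 kDa isoform. Counts do not tell the 2 isoforms apart. Summed over 10 markers of luminal epithelium, the level lay between 12303 and 22753 CPM in the 6 libraries, while 8 fibroblast markers summed to 54.7 to 83.3 CPM, 7 leukocyte markers to 7.64 to 16.6 CPM, 5 endothelial markers to 2.60 to 5.90 CPM, 6 basal markers to 10.2 to 21.3 CPM and 4 adipocyte markers to 2.86 to 7.06 CPM. The adipocyte marker FABP4 and the endothelial marker TEK were at 0. By group, the luminal sum was 15607 to 20472 CPM in the empty vector. It was 19188 to 22753 CPM with 18 kDa and 12303 to 15199 CPM with 22.5 kDa FGF2. KRT8 and KRT18 made up most of this sum, at means of 8202 and 6253 CPM in the empty vector. The sum thus hides the fall of ESR1 and PGR, also among the 10 markers. The log2 fold changes with 18 kDa and 22.5 kDa FGF2 were -3.57 and -2.88 for ESR1 (edgeR adjusted p = 4.63e-05 and 0.000245). For PGR they were -3.24 and -3.18 (edgeR adjusted p = 9.77e-06 and 8.77e-06). No other tested marker of the 10 had an adjusted p under 0.05 against the empty vector. The fibroblast sum was 69.2 to 83.3 CPM in the empty vector, 56.0 to 57.3 CPM with 18 kDa and 54.7 to 59.7 CPM with 22.5 kDa FGF2. The basal sum was 21.0 to 21.3 CPM in the empty vector, 10.2 to 18.7 CPM with 18 kDa and 11.8 to 12.8 CPM with 22.5 kDa FGF2. The leukocyte sum, with CD3E at 0, was 15.2 to 15.4 CPM in the empty vector, 11.8 to 16.6 CPM with 18 kDa and 7.64 to 10.2 CPM with 22.5 kDa FGF2. The adipocyte sum was 2.86 to 3.38 CPM in the empty vector, 5.97 to 7.06 CPM with 18 kDa and 3.21 to 3.61 CPM with 22.5 kDa FGF2. The part of these markers in the results was not tested. Replicate 1 of each FGF2 group lay far from its partner on the second principal component, at -48.0 against -2.65 for 18 kDa and 42.7 against 8.29 for 22.5 kDa FGF2.

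The promoters of MT2A and MT1X, the members with the most metallothionein counts, are shown with that of MT1H, a gene of the same cluster that had no count. Each is the 250 bases before the annotated start in RefSeq, from the table for GRCh38.p14, on the plus strand of chromosome 16 (chr16:56608334-56608583 for MT2A, chr16:56682220-56682469 for MT1X and chr16:56669564-56669813 for MT1H). The counts were made on hg19, so these coordinates apply to the sequences only. Capitals mark each match, on either strand, to the core of the metal response element, searched as TGCACNC and as TGCGCNC.
MT2A: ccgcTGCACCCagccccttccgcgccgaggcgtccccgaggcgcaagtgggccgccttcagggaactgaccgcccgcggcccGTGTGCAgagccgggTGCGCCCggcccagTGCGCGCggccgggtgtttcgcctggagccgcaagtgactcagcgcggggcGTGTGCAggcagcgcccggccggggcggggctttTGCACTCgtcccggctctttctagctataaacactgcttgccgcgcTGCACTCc
MT1X: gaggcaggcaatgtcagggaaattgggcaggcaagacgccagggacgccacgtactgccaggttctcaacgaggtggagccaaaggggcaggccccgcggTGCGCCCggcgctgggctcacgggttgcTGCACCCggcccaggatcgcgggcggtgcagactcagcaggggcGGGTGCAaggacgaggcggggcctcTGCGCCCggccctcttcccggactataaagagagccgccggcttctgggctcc
MT1H: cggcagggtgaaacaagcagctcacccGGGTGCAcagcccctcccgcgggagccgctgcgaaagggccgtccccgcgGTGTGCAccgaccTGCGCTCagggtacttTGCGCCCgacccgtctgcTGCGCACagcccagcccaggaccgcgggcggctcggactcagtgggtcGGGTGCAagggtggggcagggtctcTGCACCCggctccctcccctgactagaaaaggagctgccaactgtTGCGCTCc

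MT2A held 7 such matches in this window, MT1X 4 and MT1H 8. The marked matches did not overlap each other. Of 35116 promoter windows in the table, 24.8% held at least 1 match and 0.370% held 4 or more. The windows of MT1B and MT4, which had no count either, held 3 each, that of SLC30A1 held 1 and that of MTF1 held 0. For MT1B and SLC30A1 the bases after the annotated start were not found in a transcript of the gene in GENCODE release 29. Their windows are thus less certain than those of the other genes. A TATA box (TATAAA) stood 29 to 24 bases before the start of MT2A and 30 to 25 bases before that of MT1X, and the MT1H window had no such match. TATAAA was found in 10.7% of all windows on either strand. A match is only a run of letters, and the promoters of MT1H and MT1B, silent here, carried matches as those of the expressed MT2A and MT1X did.

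**Figure D1:**
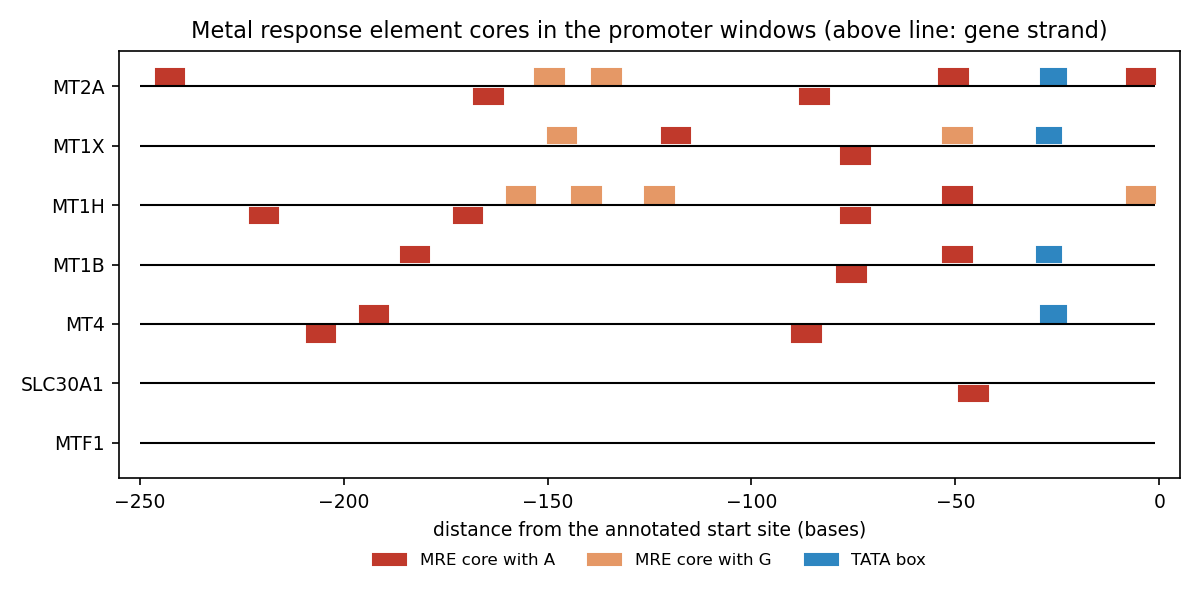
Matches to the metal response element core (with A, red, or with G, orange) and to TATAAA (blue) in the 250 bases before the start of 7 genes. The x axis is the distance from the start in bases, and boxes above a line are on the gene's strand. MT2A shows 7 matches to the core, MT1X 4, MT1H 8 and MTF1 0.

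MT2A (Entrez 4502), the main metallothionein of most human cells, was the only member to pass the test, and it fell with 22.5 kDa FGF2. It had 132 and 169 CPM in the empty vector, 98.2 and 97.2 CPM with 18 kDa FGF2 and 56.2 and 71.2 CPM with 22.5 kDa FGF2. The libraries of the 3 groups did not overlap, with the empty vector highest and 22.5 kDa FGF2 lowest. Against the empty vector it fell by 1.24 on the log2 scale with 22.5 kDa FGF2, a 2.37-fold lower level (SE 0.22, 95% interval -1.70 to -0.79, edgeR quasi-likelihood adjusted p = 0.000341). This call was kept in all 16 alternatives tried, with adjusted p-values of 4.08e-06 to 0.022. With 18 kDa FGF2 the log2 fold change was -0.62 (SE 0.22, interval -1.07 to -0.17) and missed the threshold (edgeR adjusted p = 0.0793, unadjusted 0.00842). In bulk RNA, fewer cells that express a gene and less RNA per cell cannot be told apart. The intervals are for single genes and are not adjusted for the 13124 genes tested.

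Directly between the isoforms, MT2A was at -0.62 for 22.5 kDa against 18 kDa FGF2 (SE 0.22, interval -1.07 to -0.17), and this difference did not pass (edgeR adjusted p = 0.203). The 18 kDa comparison passed when libraries were scaled by their totals only (edgeR adjusted p = 0.0371). Without the 2 libraries that stood apart its value was -0.62. That fit has 1 library in each FGF2 group and so holds no spread within them.

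MT1X (Entrez 4501), an inducible member at the far end of the cluster, did not pass in any of the 3 comparisons. It had 32.4 and 52.5 CPM in the empty vector, 67.5 and 82.0 CPM with 18 kDa FGF2 and 41.4 and 72.6 CPM with 22.5 kDa FGF2. Both 18 kDa libraries were above both empty vector libraries, while the 22.5 kDa libraries overlapped both other groups. The log2 fold changes were 0.82 with 18 kDa FGF2 (SE 0.29, interval 0.20 to 1.44, edgeR adjusted p = 0.106) and 0.42 with 22.5 kDa FGF2 (SE 0.29, interval -0.20 to 1.04, adjusted p = 0.44). Between the isoforms it was at -0.40 (SE 0.29, adjusted p = 0.636). The comparison of 18 kDa FGF2 with the empty vector passed in 5 of 16 alternatives. Among these were no filter on low counts (edgeR adjusted p = 0.0112) and the replicate block (0.0152). The others left out libraries. The value was 1.21 without empty vector replicate 2 and 0.84 without 22.5 kDa replicate 1. It was 0.96 without replicate 1 of either FGF2 group. Such fits have 1 library in a group, so their p-values hold no spread within it. The adjusted p over all its alternatives ran from 0.00312 to 0.688. With both replicate 1 libraries left out, the 22.5 kDa value was 0.78, again with 1 library in each FGF2 group. Of the 101-base windows in coding transcripts of MT1X in GENCODE release 29, 30.7% also occur in the noncoding gene AC026461.1, so its counts are uncertain to that extent.

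MT1F (Entrez 4494), a minor metallothionein in these libraries, had 6.08 and 8.44 CPM in the empty vector, 4.91 and 4.74 CPM with 18 kDa FGF2 and 5.34 and 9.42 CPM with 22.5 kDa FGF2. Its 18 kDa libraries were the 2 lowest, and the range of the 22.5 kDa libraries held both empty vector libraries. Neither comparison with the empty vector passed (for 18 kDa FGF2 a log2 fold change of -0.58, SE 0.43, edgeR adjusted p = 0.492, and for 22.5 kDa FGF2 of 0.01, SE 0.42, adjusted p = 0.994). The interval of the second reaches from -0.85 to 0.87, up to a 1.83-fold higher level. Between the isoforms MT1F was at 0.60 (SE 0.43, edgeR adjusted p = 0.621).

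MT1E (Entrez 4493) had 1 count in each 18 kDa library and none in the other 4. MT1G (Entrez 4495) had 1 count in 18 kDa replicate 1 and none elsewhere. A library with no count allows up to 3 counts, which at these depths is 0.440 to 0.564 CPM. No difference in either gene was detectable at this depth, and no fold is given.

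**Figure D2:**
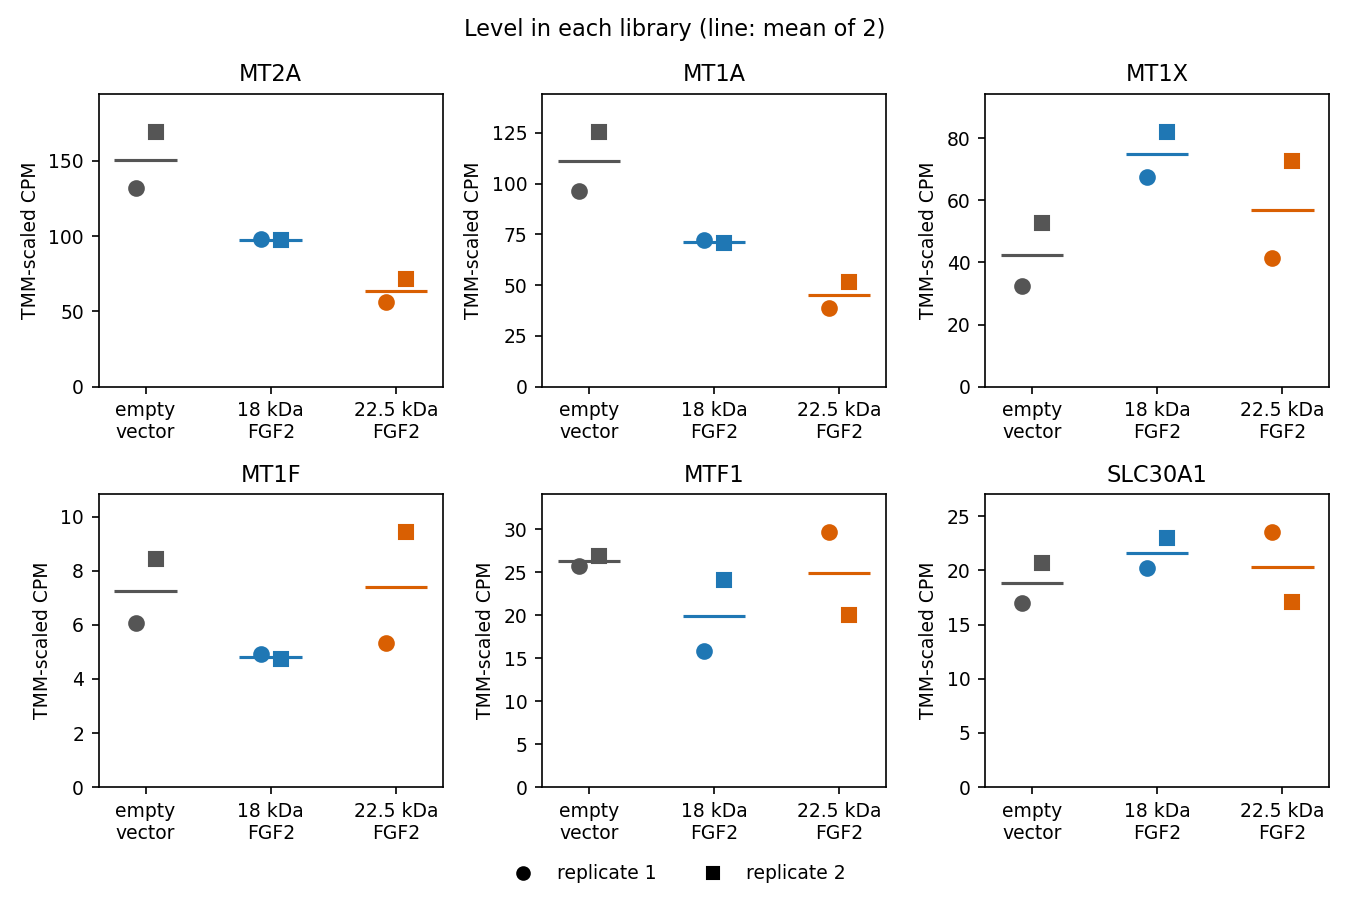
Level in scaled CPM (y axis, from 0) of 4 metallothionein genes, MTF1 and SLC30A1 in each of the 6 libraries (x axis: group, with circles for replicate 1 and squares for replicate 2), with the mean of 2 as a line. MT2A and MT1A are highest in the empty vector and lowest with 22.5 kDa FGF2, while MT1X is lowest in an empty vector library, at 32.4 CPM.

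MTF1 (Entrez 4520) binds the metal response elements. Its mRNA was at 25.8 and 26.8 CPM in the empty vector, 15.8 and 24.1 CPM with 18 kDa FGF2 and 29.6 and 20.04 CPM with 22.5 kDa FGF2. Both 18 kDa libraries were below both empty vector libraries, and the 22.5 kDa libraries lay on either side of them. Its log2 fold changes of -0.40 (SE 0.31, interval -1.04 to 0.24, edgeR adjusted p = 0.52) and -0.08 (SE 0.31, interval -0.71 to 0.56, adjusted p = 0.927) did not pass, nor did the 0.32 between the isoforms (SE 0.31, adjusted p = 0.723). MTF1 responds to zinc mainly through its binding to DNA, which mRNA counts do not measure.

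SLC30A1 (Entrez 7779) moves zinc out of the cell. It had 17.0 and 20.6 CPM in the empty vector, 20.3 and 23.0 CPM with 18 kDa FGF2 and 23.5 and 17.0 CPM with 22.5 kDa FGF2, so that the 3 groups overlapped. The log2 fold changes were 0.20 with 18 kDa FGF2 (SE 0.31, interval -0.44 to 0.84, edgeR adjusted p = 0.78) and 0.11 with 22.5 kDa FGF2 (SE 0.31, interval -0.53 to 0.76, adjusted p = 0.887). The first interval reaches a 1.79-fold higher level, so it does not show that SLC30A1 stayed the same. Between the isoforms the value was -0.09 (SE 0.31, adjusted p = 0.939).

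With 18 kDa FGF2, 0 of the 5 tested members passed with edgeR, where 8.88% of all tested genes did (4.09% higher and 4.79% lower). At an unadjusted p under 0.05 there were 2, MT1X and MT2A, and DESeq2 called 0. With 22.5 kDa FGF2 1 of 5 passed (20%), beside 10.9% of all tested genes (5.02% higher and 5.88% lower). Between the isoforms 0 of 5 passed with edgeR, beside 1.58% of all tested genes (1.13% higher and 0.45% lower), with 1 at an unadjusted p under 0.05 and 0 with DESeq2. The median log2 fold change of the 5 was -0.40 with 18 kDa FGF2 and 0.01 with 22.5 kDa FGF2, and over all tested genes it was -0.05 and 0.01. Groups of 2 libraries often did not overlap. With 18 kDa FGF2 this held for 4 of the 5 members (MT1X higher, and MT2A, MT1F and MTF1 lower), beside 52% of all tested genes (25% higher and 26.9% lower). With 22.5 kDa FGF2 it held for 1, MT2A, beside 52.9% of all tested genes (26% higher and 27% lower). Between the isoforms it held for 2 (MT1F higher and MT2A lower), beside 38.1% of all tested genes (19.1% higher and 19% lower). The absence of overlap in MT2A is thus a description only.

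**Figure D3:**
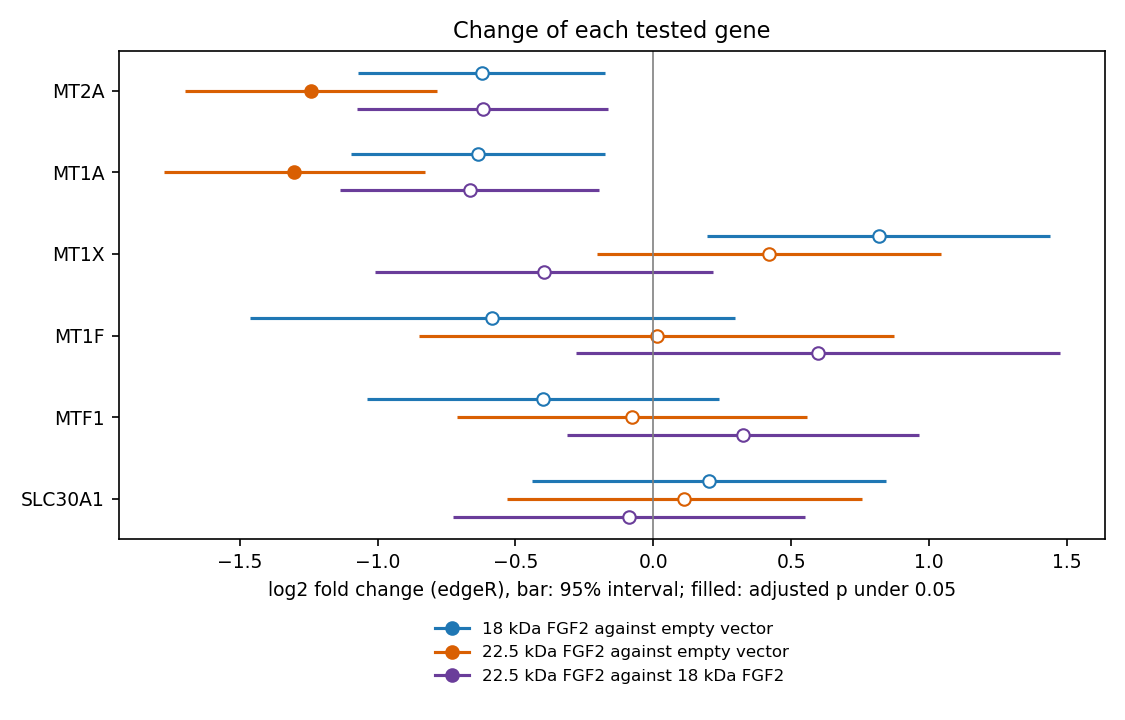
Log2 fold change (x axis) with its 95% interval for each tested member and MT1A (y axis) in the 3 comparisons, each in its own colour. Filled points passed at an adjusted p under 0.05. MT2A and MT1A passed with 22.5 kDa FGF2, at -1.24 and -1.30, and no other point is filled.

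Other metallothionein genes of the table were examined as well. Of 8 further genes (MT1A, MT1B, MT1H, MT1L, MT1M, MT1HL1, MT3 and MT4), 6 had no count in any library, MT1M had 1 count in all, and MT1A was tested. MT3, the form known from brain, and MT4, known from squamous epithelium, were among the 6. MT1A (Entrez 4489), which lies between MT2A and MT1X, had 96.4 and 126 CPM in the empty vector, 72.1 and 70.6 CPM with 18 kDa FGF2 and 38.6 and 51.5 CPM with 22.5 kDa FGF2. Its groups were ordered as those of MT2A and did not overlap. It fell by 1.30 on the log2 scale with 22.5 kDa FGF2 (SE 0.23, edgeR adjusted p = 0.000296), passed in all 16 alternatives, and was at -0.64 with 18 kDa FGF2 (SE 0.22, adjusted p = 0.0825). As for MT2A, the 18 kDa comparison passed with library totals only (edgeR adjusted p = 0.0489). Without the 2 libraries that stood apart its value was -0.64, with 1 library in each FGF2 group.

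MT1A counts stood in an almost fixed ratio to MT2A counts. MT1A made up 42.3% and 42.6% of the counts of the 2 genes together in the empty vector libraries, 42.3% and 42.1% with 18 kDa FGF2 and 40.7% and 42.0% with 22.5 kDa FGF2. The widest of the 6 exact (Clopper-Pearson) 95% intervals, which cover counting error only, was 38.0% to 46.0%, and every library's interval holds the value of every other. Over the 6 libraries the log2 CPM of MT1A and MT2A had Pearson r = 0.999, as a description. MT1A and MT2A shared none of their 101-base windows in GENCODE release 29 and none of 50 bases. The counting annotation remains not given in the sources used here. Whether reads of 1 gene were counted for the other was not tested. The MT1A values are therefore uncertain and cannot be taken as independent of those of MT2A.

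The balance between MT1X and MT2A within a library, which no scaling factor touches, was also compared between the groups. MT1X made up 19.7% (interval 17.2 to 22.5) and 23.7% (21.3 to 26.2) of the counts of the 2 genes in the empty vector. The shares were 40.7% (37.8 to 43.7) and 45.8% (42.7 to 48.9) with 18 kDa FGF2 and 42.4% (38.5 to 46.3) and 50.5% (46.8 to 54.2) with 22.5 kDa FGF2. All 4 FGF2 libraries were thus above both empty vector libraries, with counting intervals that did not meet. These intervals leave out the spread between libraries of a group, which went beyond counting. Over genes with at least 20 counts in a pair, chi-square per degree of freedom was 6.20 for the empty vector. It was 14.3 for each FGF2 group. The gap between the intervals is therefore a description only. The log2 ratio of MT1X to MT2A was -1.86 ± 0.24 in the empty vector libraries, -0.39 ± 0.21 with 18 kDa FGF2 and -0.21 ± 0.33 with 22.5 kDa FGF2 (SD, n = 2 libraries each). The differences from the empty vector were 1.46 and 1.65. An exact two-sided permutation test of 2 libraries against 2 gave p = 0.333 for each, the smallest it can give, so it cannot decide. How often other pairs of genes separate the groups was not tested. For single genes, the groups did not overlap in 52% and 52.9% of those tested. Between the isoforms the ratio differed by 0.19 and the libraries overlapped (exact permutation p = 0.667).

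MT1F against MT2A showed another pattern. MT1F made up 4.42% and 4.75% of the counts of MT1F and MT2A in the empty vector libraries, 4.76% and 4.66% with 18 kDa FGF2, and 8.68% and 11.7% with 22.5 kDa FGF2. The share with 18 kDa FGF2 was close to that of the empty vector, and both 22.5 kDa libraries were higher. Exact permutation gave p = 0.333 for 22.5 kDa FGF2 against the empty vector, again the smallest possible, and 9 such ratios were compared in all, none of which can pass after adjustment.

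**Figure D4:**
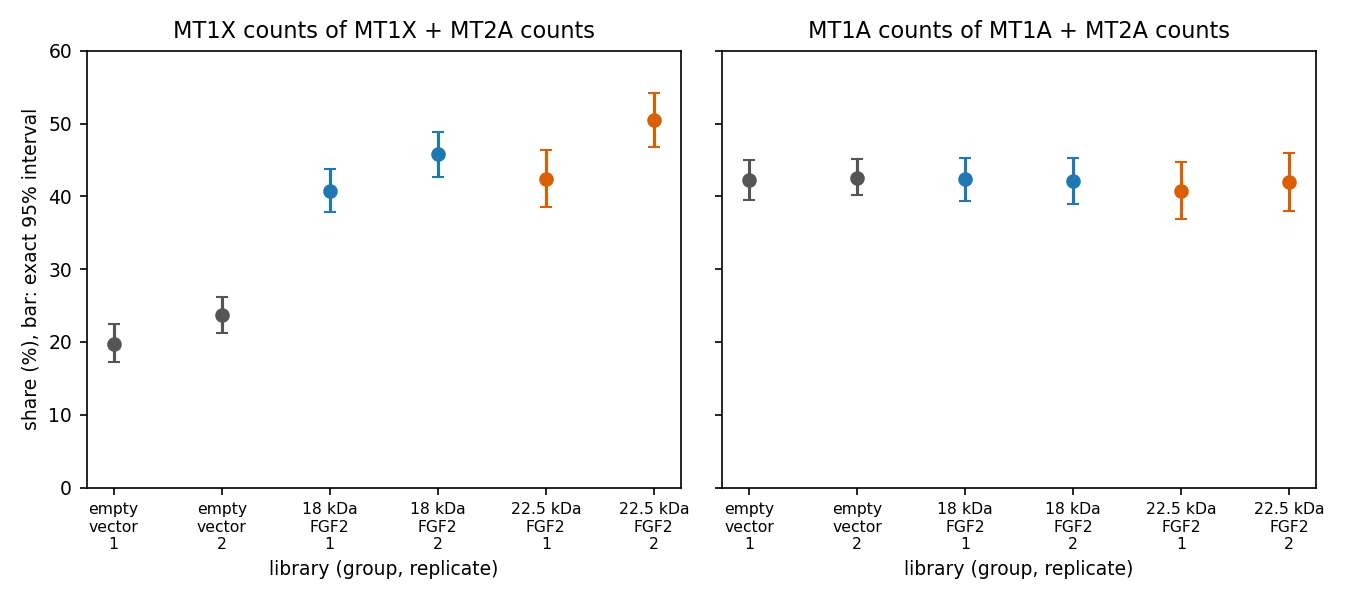
Share (y axis, %) of MT1X in the counts of MT1X and MT2A (left) and of MT1A in those of MT1A and MT2A (right) in each library (x axis), with exact 95% intervals. MT1X lies at 19.7% and 23.7% in the empty vector libraries and between 40.7% and 50.5% in the FGF2 libraries, while MT1A lies between 40.7% and 42.6%.

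Summed over the 13 metallothionein genes, the level was 267 and 356 CPM in the empty vector, 243 and 255 CPM with 18 kDa FGF2 and 142 and 205 CPM with 22.5 kDa FGF2. Without MT1A the sums were 170 and 230, 171 and 184, and 103 and 153 CPM. The 22.5 kDa libraries were the 2 lowest on both sums, and without MT1A the 18 kDa libraries lay within the range of the empty vector. Per kilobase of coding transcript, MT2A stood at 220 ± 38.9 CPM in the empty vector, above MT1X at 85.9 ± 28.9 and MT1F at 13.1 ± 3.02 (SD, n = 2). MT1A, whose counts are uncertain, was higher still at 280 ± 52.0. Lengths were medians over annotated coding transcripts, 683.5 bases for MT2A and 494 for MT1X, and the levels depend on them. With 18 kDa FGF2 MT2A (143 ± 1.11) and MT1X (151 ± 20.8) did not differ beyond their spread, nor did they with 22.5 kDa FGF2 (93.2 ± 15.5 and 115 ± 44.6). On the same scale SLC30A1 and MTF1 were near the bottom in every group, between 2.50 and 3.95 CPM per kilobase on average.

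By the rule set for similar patterns, the 5 genes whose log2 CPM over the 6 libraries was closest to the mean of MT1F, MT1X and MT2A were SMARCD3 (Pearson r = 0.986), C8orf33 (0.979), KISS1 (0.978), DGAT2 (0.974) and FKBP4 (0.972). They were taken from 12751 genes, and with 6 libraries in 3 groups such values are a description. The 3 members themselves did not share a pattern, with r = -0.16 between MT1X and MT2A, 0.20 between MT1F and MT2A and 0.00 between MT1F and MT1X.

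The other genes of zinc transport mostly did not pass. Of 9 further SLC30 exporters, 5 were tested, and 0 passed in any comparison with edgeR or DESeq2, with 1, 1 and 0 at an unadjusted p under 0.05. In the same comparisons 8.88%, 10.9% and 1.58% of all tested genes passed with edgeR. SLC30A5, which loads zinc into the secretory pathway, was at -0.49 with 18 kDa and -0.02 with 22.5 kDa FGF2 (edgeR adjusted p = 0.285 and 0.98). Of 14 SLC39 importers 13 were tested. With 18 kDa FGF2 2 of the 13 fell and 0 rose (15.4% called, beside 8.88% of all tested genes). With 22.5 kDa FGF2 1 fell and 0 rose (7.69%, beside 10.9%). In a list of 13 genes such counts are near that share. SLC39A8, a zinc and manganese importer, went from 10.5 and 11.4 CPM to 1.84 and 3.69 with 18 kDa and 4.58 and 1.40 with 22.5 kDa FGF2. Both FGF2 groups lay below the empty vector (log2 fold change -2.00, SE 0.49, edgeR adjusted p = 0.011, and -1.83, SE 0.49, adjusted p = 0.0164). For the first, the call was lost without 18 kDa replicate 1 (0.078) and with library totals only (0.0833). For the second it was lost without 22.5 kDa replicate 2 (0.209) and with library totals only (0.0944) or upper-quartile factors (0.0548). SLC39A9, an importer of the Golgi, fell by 0.74 with 18 kDa FGF2 (edgeR adjusted p = 0.0339). The call did not hold without empty vector replicate 1 (0.133), empty vector replicate 2 (0.317), 18 kDa replicate 1 (0.37) or 22.5 kDa replicate 2 (0.0551).

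Of 12 copper handling genes, all tested, 0 passed with 18 kDa FGF2 (2 at an unadjusted p under 0.05, 0 with DESeq2), beside 8.88% of all tested genes. With 22.5 kDa FGF2 1 rose and 0 fell (8.33% called, beside 10.9% of all tested genes). The 1 was SOD1, the copper and zinc superoxide dismutase. It had 117 and 118 CPM in the empty vector, 126 and 144 CPM with 18 kDa FGF2 and 245 and 248 CPM with 22.5 kDa FGF2. The 22.5 kDa libraries stood apart from the 4 others, 2.10-fold above the empty vector (log2 fold change 1.07, SE 0.21, edgeR adjusted p = 0.00086). Of 10 tested iron genes, 0 passed with 18 kDa FGF2 (1 at an unadjusted p under 0.05, 0 with DESeq2), beside 8.88% of all tested genes. With 22.5 kDa FGF2 1 rose (10% called, again beside 10.9%). That gene was the iron importer SLC11A2 (log2 fold change 0.79, SE 0.22, edgeR adjusted p = 0.0174). It lost the call without either empty vector library (0.141 and 0.212) and without 22.5 kDa replicate 1 (0.158).

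Stress genes that also respond to metals were listed next. Of 13 tested oxidative stress genes of the NRF2 pathway, 0 fell with 18 kDa FGF2, beside 4.79% of all tested genes. With 22.5 kDa FGF2 0 rose and 1 fell (7.69% called, beside 10.9% of all tested genes). GCLM, a subunit of the glutathione synthesis enzyme, fell by 1.20 with 22.5 kDa FGF2 (SE 0.39, edgeR adjusted p = 0.0461). That call did not hold with DESeq2 (0.0761), without empty vector replicate 1 (0.265) or 2 (0.109), or without 22.5 kDa replicate 2 (0.331). Of 10 heat shock genes, 0 passed in any comparison with edgeR or DESeq2, with 1, 1 and 2 at an unadjusted p under 0.05. Among all tested genes 8.88%, 10.9% and 1.58% passed with edgeR.

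Steroid receptors and genes that respond to glucocorticoids or progestins were listed because metallothionein genes respond to these hormones. Of 10 tested, 3 fell with 18 kDa FGF2 and 2 fell with 22.5 kDa FGF2, beside 4.79% and 5.88% of all tested genes. The progesterone receptor gene PGR fell by 3.24 on the log2 scale with 18 kDa FGF2 (SE 0.31, edgeR adjusted p = 9.77e-06). With 22.5 kDa FGF2 it fell by 3.18 (SE 0.31, edgeR adjusted p = 8.77e-06). T47D-YA carries progesterone receptor form A, and the counts do not tell which copy of the gene the RNA came from. PER1, a clock gene that glucocorticoids induce, fell by 1.17 (SE 0.24, edgeR adjusted p = 0.00176) and fell by 1.52 (SE 0.24, adjusted p = 0.00011). FKBP5, which encodes a co-chaperone of steroid receptors, fell by 1.46 with 18 kDa FGF2 (adjusted p = 8.81e-05). With 22.5 kDa FGF2 it was at -0.46 (edgeR adjusted p = 0.202). Without the 2 libraries that stood apart it was at -0.60, with 1 library in each FGF2 group. NR3C1, the glucocorticoid receptor gene, is listed at 0 in all 6 libraries.

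Genes beside the cluster were examined too. Of 14 flanking genes on chromosome 16, 12 were tested. With 18 kDa FGF2 0 passed (2 at an unadjusted p under 0.05, 0 with DESeq2), beside 8.88% of all tested genes. With 22.5 kDa FGF2 2 fell and 0 rose (16.7% called, beside 10.9% of all tested genes), which for 12 genes is near that share. Their median log2 fold change was -0.24 and -0.18, beside -0.05 and 0.01 over all tested genes. The immune regulator gene NLRC5 fell by 1.60 (SE 0.46, edgeR adjusted p = 0.0222) and the kidney salt transporter gene SLC12A3 fell by 1.49 (SE 0.44, adjusted p = 0.0264). Both were at or below 9.76 CPM in every library. Each missed the threshold with DESeq2 (0.102 and 0.114) and without any 1 of the 4 libraries of that comparison, at 0.0541 to 0.155 for NLRC5 and 0.0533 to 0.259 for SLC12A3. SLC12A3 also missed it without the 2 libraries that stood apart (0.0545). The other 10 tested neighbours did not pass.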

How the data were processed

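Directional paired-end libraries were prepared from TriReagent RNA with a TruSeq kit, per the labels' protocols. The authors deposited whole-number read counts per Entrez gene, with no normalization. Submitters' processing notes name the build hg19 and the tool edgeR. Which aligner, counter, annotation and strand setting were chosen remains not given in the sources used here. Reads of similar metallothionein genes may have been split or dropped.

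A single edgeR model (version 4.0.16, R 4.3.3) held all 6 libraries, with TMM factors, filterByExpr, a robust quasi-likelihood test and 3 residual degrees of freedom. On simulated data it found 32% of 2-fold changes with 18 kDa FGF2, 49% with 22.5 kDa FGF2 and 42% between the isoforms. Of 4-fold changes it found 88%, 92% and 89%. A gene that did not pass may thus still have changed by 2-fold. The simulated runs shared their gene means and spread, so their shares do not rank the comparisons. Each changed 100 genes by each fold, where 1165 and 1431 genes passed against the empty vector in the data. The adjusted threshold therefore differed, and the spread was a trend over genes rather than that of each gene. These shares are rough. The filter kept 13124 of 23459 genes. P-values were adjusted over these (Benjamini-Hochberg), and passing means an adjusted p under 0.05. The SE is the size of the log2 fold change divided by the root of the F statistic. DESeq2 1.42.0, other scalings, filters, pairings and left-out libraries were alternatives.

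Symbols came from RefSeq by Entrez ID (23308 matched), lengths and windows from GENCODE release 29, and promoters from RefSeq (4 of 7 members had one). The members and lists were chosen with earlier results of these data known. The text names all members and metallothionein genes, up to 4 passing genes per list by smallest p, and the 2 most abundant where fewer than 2 passed, though not every gene so taken is printed. Some results are not reported here.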

Additional observations from a re-analysis of the deposited data

Results flagged for a closer look

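Among the genes named, 2 differed between the isoforms in the direct test. SOD1 was higher with 22.5 kDa than with 18 kDa FGF2 by 0.87 on the log2 scale (SE 0.21, edgeR adjusted p = 0.0235, 0.00217 to 0.874 over its alternatives). It missed the threshold without any 1 library other than 18 kDa replicate 2 (0.0518 to 0.227). FKBP5 was higher with 22.5 kDa FGF2 by 1.00 (SE 0.23, edgeR adjusted p = 0.0182, 0.00223 to 0.53 over its alternatives), and missed the threshold without 18 kDa replicate 1 (0.204) or 22.5 kDa replicate 1 (0.256) or 2 (0.108), and without replicate 1 of both FGF2 groups (0.0983). No member passed in this test.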

How the results depend on the processing

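The fall of MT2A with 22.5 kDa FGF2 passed in every alternative run, including DESeq2, each scaling and filter, and each left-out library. The number of members passing with 18 kDa FGF2 was 0, and it was 1 with library totals only, 1 with no filter, 1 with the replicate block, 0 to 1 with a library left out, and 2 without replicate 1 of both FGF2 groups, an alternative chosen after seeing the data. With 22.5 kDa FGF2 it was 1, and 2 without those libraries. A fit with a library left out has 1 library in that group. The fit without both replicate 1 libraries has 1 in each FGF2 group. Calls from such fits hold no spread within those groups and are a description only. The count of genes passing moved more. For 18 kDa FGF2 it was 1165, and 496 against a fold of 1.5, 1915 without both replicate 1 libraries, and 617 to 1440 with a library left out. For 22.5 kDa FGF2 it was 1431, and 643, 2535 and 630 to 1964. Between the isoforms it was 207, and 78, 354 and 37 to 733, with 70 for library totals only, 109 for upper-quartile factors and 445 with no filter.

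The replicate numbers share no stated source. Same-numbered libraries deviated together with r = -0.27 for 18 kDa FGF2 and the empty vector, 0.39 for 22.5 kDa FGF2 and the empty vector and -0.41 between the isoforms. With the replicate block 1210, 1523 and 337 genes passed, and the member that then passed with 18 kDa FGF2 was MT1X (log2 fold change 0.86, edgeR adjusted p = 0.0152). With crossed numbers, chosen after seeing the data, 2434 passed for 18 kDa FGF2 and 280 between the isoforms.

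Values near 0 changed sign without passing. MT1F with 22.5 kDa FGF2 went to -0.0329 with upper-quartile factors, -0.0264 with library totals, -0.0133 with at least 10 counts in every library and -0.000874 with the replicate block. With a library left out, the 22.5 kDa values ran from -0.42 to 0.37 for MT1F, -0.0161 to 0.82 for MT1X, -0.40 to 0.19 for MTF1 and -0.15 to 0.34 for SLC30A1. Between the isoforms they ran from -0.00992 to 0.60 for MTF1, -0.37 to 0.0988 for SLC30A1, -0.97 to 0.72 for SLC39A8, -0.42 to 0.68 for PGR and -0.81 to 0.0308 for NLRC5. Without both replicate 1 libraries SLC30A1 with 22.5 kDa FGF2 was at -0.14 and, between the isoforms, MTF1 was at -0.26, SLC39A8 at -1.38 and PGR at -0.44. The cause was not tested. Depth limits MT1E and MT1G, at or below 1 count in every library.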
